A study of Mus musculus with 12 samples.

Results

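The transcripts of 9 genes that couple mechanical load to the sarcomere or the nucleus of striated muscle were followed in adult cardiomyocytes with and without desmin. They are the ankyrin-repeat genes Ankrd1, Ankrd2 and Ankrd23, the LIM-domain genes Fhl1, Fhl2 and Csrp3, the Xin-repeat genes Xirp1 and Xirp2, and Tcap. The genes were chosen by symbol, with earlier results of these data known, and all 9 were found among the 21493 genes counted in every library. Of these, 8 passed the filter on low counts and were tested; Ankrd2 did not pass it. Cardiomyocytes had been isolated with trypsin and collagenase from the hearts of 3-month-old mice, and polyadenylated RNA was sequenced. The mice carried desmin (Des+/+) or lacked it (Des-/-), and within each genotype they had swum (swim) or had not (non-swim). This gave the groups Des+/+ non-swim, Des+/+ swim, Des-/- non-swim and Des-/- swim, with 3 libraries each and 12 in all. Desmin was absent from the whole animal in the Des-/- groups, so a lasting effect of its loss and an acute one cannot be told apart. Every library held pooled cells of several mice, as the methods of the study describe, so p-values measure the spread between such pools.

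In heart muscle the Z-disc and the titin filament that springs from it bear tension, and several proteins bound there are also found in the nucleus. The muscle ankyrin repeat proteins bind the I-band region of titin and act as transcriptional cofactors, and Ankrd1 is a classical stress-induced gene of the heart. FHL proteins sit on titin and the Z-disc as LIM-domain scaffolds. Csrp3 (muscle LIM protein) and Tcap (telethonin, which caps the titin N terminus) form part of a proposed Z-disc stretch sensor, and the Xin proteins bind actin at intercalated discs and at sites of myofibril remodelling. Desmin filaments link Z-discs to one another, to the cell membrane and to the nucleus.

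Between 4320819 and 12072443 reads per library were assigned to genes. A gene's level is its CPM, its reads per 1000000 reads in genes after TMM scaling of the libraries. Des itself lay between 973 and 3647 CPM in the 6 Des+/+ libraries and between 50.3 and 101 CPM in the 6 Des-/- libraries, so the genotype labels and the Des counts did not conflict. The 8 cardiomyocyte markers (Myh6, Tnnt2, Tnni3, Tnnc1, Myl2, Myl3, Ryr2 and Pln) were present in all libraries, but their summed level was not even. It was 44566 to 72704 CPM in Des+/+ non-swim, 23095 to 42642 CPM in Des+/+ swim, 4569 to 20037 CPM in Des-/- non-swim and 12432 to 21747 CPM in Des-/- swim libraries. The 8 fibroblast markers summed to 3177 to 3682, 2179 to 3190, 7960 to 39661 and 3638 to 13416 CPM in the same order of groups. The fibroblast sum exceeded the cardiomyocyte sum in replicate 3 of both Des-/- groups, at 39661 against 4569 CPM without and 13416 against 12432 CPM after swimming. These libraries also had the highest scores on the first principal component, 102 and 59.0. In such bulk samples, fewer cardiomyocytes and less RNA of these genes per cardiomyocyte cannot be told apart.

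The 9 genes differed widely in their level per kilobase of annotated exon, the scale on which genes can be compared. Tcap had the highest mean in every group, at 1708 ± 522 CPM per kilobase (SD, n = 3) in Des+/+ non-swim libraries. In that group Fhl2 followed at 701 ± 204 CPM per kilobase (SD, n = 3), Ankrd1 at 465 ± 266 (SD, n = 3) and Csrp3 at 370.5 ± 80.3 (SD, n = 3). The libraries of Fhl2 and Ankrd1 overlapped on this scale, as did those of Ankrd1 and Csrp3, so the place of Ankrd1 is not set; Fhl2 and Csrp3 did not overlap. Ankrd23, at 179.9 ± 24.6 CPM per kilobase (SD, n = 3), lay apart from its neighbours on either side. Fhl1, Xirp2 and Xirp1, at 53.4 ± 16.1, 46.7 ± 12.7 and 39.6 ± 11.3 CPM per kilobase (SD, n = 3 each), overlapped one another. In both Des-/- groups Ankrd1 stood above Fhl2 in mean level per kilobase, and their libraries did not overlap in the Des-/- non-swim group, at 317 ± 57.7 against 152 ± 97.4 CPM per kilobase (SD, n = 3 each). Tcap and Ankrd1 overlapped in both Des-/- groups, and in replicate 3 of each Ankrd1 was the higher, at 288 against 140.1 CPM per kilobase without and 528 against 479.7 after swimming.

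**Figure D1:**
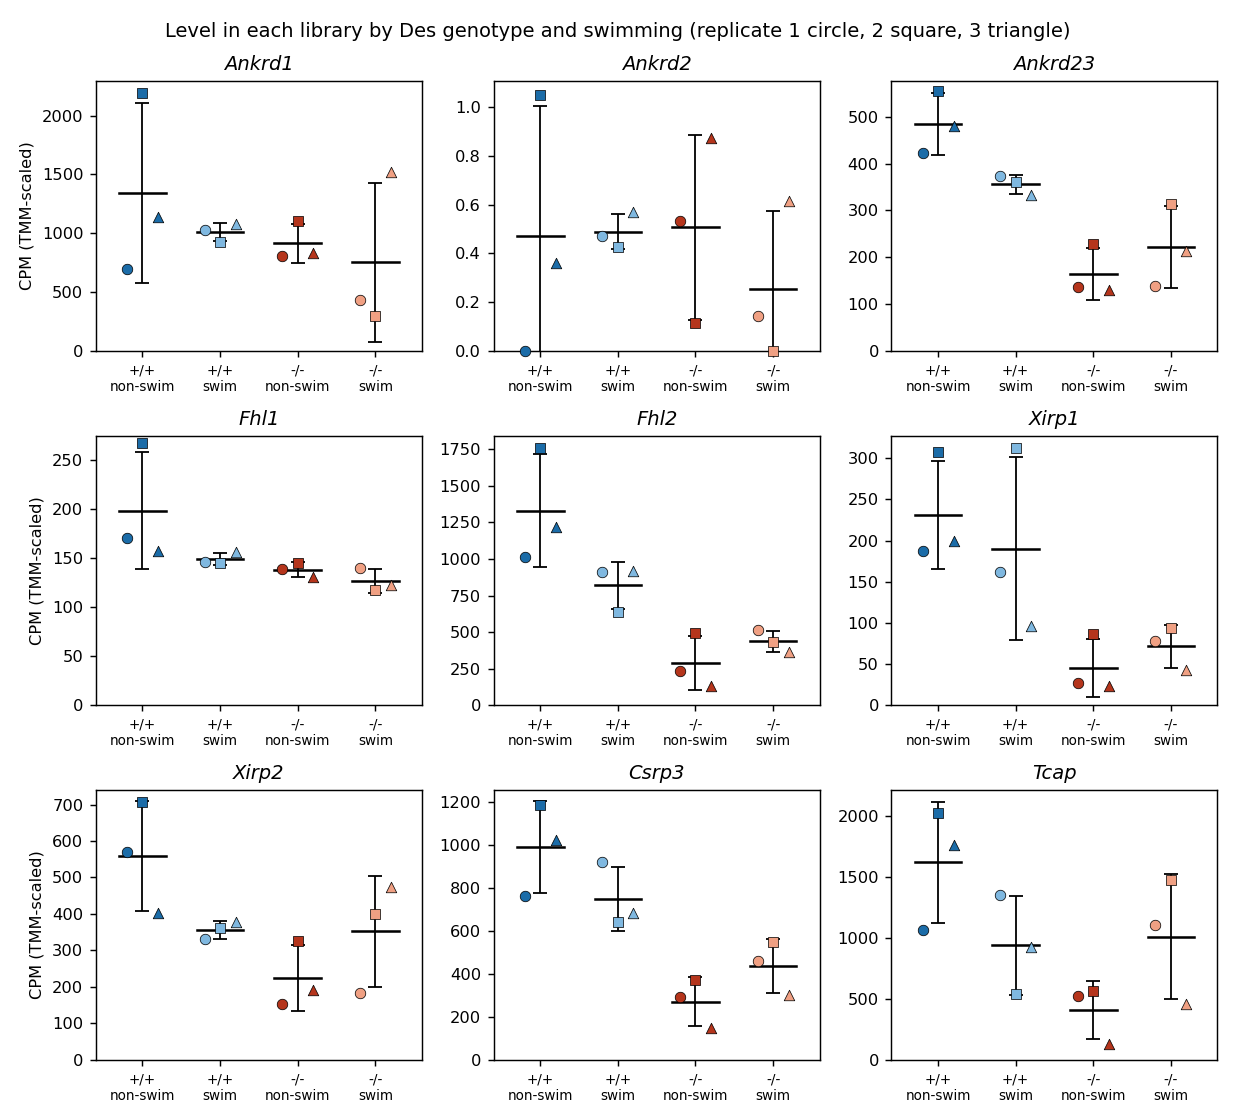
Level of each of the 9 genes (CPM, TMM-scaled, linear axes from 0, a separate scale per gene) in the 12 libraries. Points are libraries (circle, square and triangle for replicates 1, 2 and 3), horizontal lines are group means and bars are ± SD of 3 libraries; Fhl2, Csrp3, Ankrd23 and Xirp1 lie lower in all 3 Des-/- non-swim libraries than in any Des+/+ non-swim library, whereas Ankrd1 overlaps and Ankrd2 stays near 0.

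Several of these genes are known targets of the factors SRF (which binds CArG boxes), MEF2 and TEAD (which binds M-CAT elements), so the 250 bases before their RefSeq transcription starts (GRCm38.p6) were searched on both strands. Of the 9 genes, 7 had an entry, with 11 starts in all; Xirp1 and Tcap had none. CArG boxes were found in 3 of these 11 windows, against 1.47% of 32851 mouse windows, MEF2 sites in 2 (2.92% of all windows) and M-CAT elements (CATTCC) in 2 (12.6%). The stretches of 30 bases around these matches are printed because they hold the letters that these load-linked factors are known to bind. They run 5′ to 3′ along the gene's strand, with the match in capitals. The first sits 96 to 87 bases before the upstream Fhl2 start at chr1:43196838-43196867 (minus strand), the second 31 to 22 bases before the downstream Fhl2 start at chr1:43163973-43164002 (minus strand), and the third 102 to 93 bases before an Fhl1 start at chrX:56779571-56779600 (plus strand).
Fhl2 CArG, upstream start: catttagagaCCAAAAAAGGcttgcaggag
Fhl2 CArG, downstream start: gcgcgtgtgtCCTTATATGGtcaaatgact
Fhl1 CArG: ccttggatcaCCTAAAATGGttaagaattt

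The MEF2 sites were at chr1:43196773-43196802 (minus strand) in Fhl2 and at chr2:67445918-67445947 (plus strand) in Xirp2, the stretches given being centred on the match. The Fhl2 match also holds a TATA box (TATAAA, read on the other strand), a motif present in 3 of the 11 windows and 12.4% of all.
Fhl2 MEF2: tggacatgccTTATTTATAActctgctgac
Xirp2 MEF2: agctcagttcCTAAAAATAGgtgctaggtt

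M-CAT elements occurred as a pair before the Ankrd1 start, at chr19:36120037-36120066 and chr19:36119950-36119979 (both minus strand), and once before a start of Ankrd23, at chr1:36535842-36535871 (minus strand). In Ankrd1 the capitals read GGAATG, the reverse complement of CATTCC.
Ankrd1 M-CAT, distal: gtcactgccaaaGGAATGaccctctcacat
Ankrd1 M-CAT, proximal: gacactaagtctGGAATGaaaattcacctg
Ankrd23 M-CAT: cccagtgggccaCATTCCcagaacggtatt

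GATA sites (AGATAA) were in 3 of the 11 windows and 9.99% of all, and the muscle E-box CAGCTG in 0 of the 11 and 13% of all. A match describes letters in a window and was not tested as a binding site. Fhl2, with CArG boxes before both starts, had a log2 change of -2.21 without desmin, as given with the levels. That of Fhl1, with 1 such box, was -0.52. Csrp3 had no match to any motif in its windows and a log2 change of -1.88. Ankrd23 (-1.56), Xirp2 (-1.32) and Ankrd1 (-0.55) had windows without a CArG box. A link between boxes and changes was not tested.

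The first comparison asked how the loss of desmin changed these genes in mice that had not swum. Fhl2, Csrp3, Tcap, Ankrd23, Xirp1, Xirp2 and Fhl1 were lower in the Des-/- libraries, that is 7 of the 8 tested genes. The falls ranged from 1.44-fold (Fhl1) to 5.07-fold (Xirp1). They are falls in bulk RNA, in which fewer cardiomyocytes and less RNA per cardiomyocyte cannot be told apart. Ankrd1 did not pass the test. None of the 8 was called higher. Over all 13158 tested genes 32.0% were called in this comparison (edgeR adjusted p under 0.05) and 18.0% were called lower. Calls were thus common, though less so than the 7 of 8 here. The 8 genes were chosen with earlier results of these data known, so this contrast is a description and not a test. With upper-quartile scaling the balance of all calls was 2492 higher and 2034 lower, against 1840 higher and 2370 lower with TMM. The median log2 change of the 8 genes was -1.72, against 0.04 over all tested genes. In the same 7 genes no Des-/- library reached the lowest Des+/+ library, where 24.9% of all tested genes were lower without overlap.

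Among the ankyrin-repeat genes, Ankrd1 (ENSMUSG00000024803, chr19:36111961-36120099, minus strand, GRCm38) varied widely within the Des+/+ non-swim group. Its level was 697, 2189 and 1136 CPM in Des+/+ non-swim libraries, against 807, 1106 and 830.1 CPM in Des-/- non-swim libraries. Replicate 2 of the Des+/+ group was the highest and replicate 1 the lowest, and the groups overlapped. The log2 change was -0.55 (SE 0.54, edgeR adjusted p 0.467), with a 95% interval from -1.74 to 0.64 that holds both a loss of the size seen in Ankrd23 and a slight gain. Leaving out replicate 2 of Des+/+ non-swim brought it to -0.0061.

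Ankrd23 (ENSMUSG00000067653, chr1:36530188-36536883, minus strand), which encodes the titin-binding diabetes-related ankyrin repeat protein, was more even in that group. It was at 422, 554 and 480.1 CPM in Des+/+ non-swim and at 135, 227 and 129.8 CPM in Des-/- non-swim libraries. All 3 Des-/- libraries lay below the lowest Des+/+ library, with a wide gap. The level fell by 1.56 on the log2 scale (SE 0.29, 2.96-fold lower, edgeR adjusted p 0.00262), and the call was kept in all 12 fits that left out 1 library. Ankrd23 shares 2109 exonic bases on the same strand with Gm42417, an annotated gene with no row in the count tables used here, so its count may hold reads of either.

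Ankrd2 (ENSMUSG00000025172, chr19:42036000-42045110, plus strand), the relative best known from slow skeletal muscle, was close to absent. Its counts ranged from 0 to 10 reads per library, or 0 to 1.05 CPM, around the floor of 3 counts that a count of 0 allows. Without TMM scaling this floor was 0.249 to 0.694 per 1000000 reads in genes across libraries. No difference between groups was detectable at this depth, and no fold is given. The 10 skeletal muscle markers, for comparison, summed to 18.5 to 110 CPM across libraries.

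The LIM-domain gene Fhl2 (ENSMUSG00000008136, chr1:43123074-43196984, minus strand) encodes a scaffold that binds titin and is most abundant in the heart. Its levels were 1009.9, 1761 and 1221 CPM in Des+/+ non-swim and 237, 493 and 134 CPM in Des-/- non-swim libraries. The highest Des-/- library, replicate 2, was below the lowest Des+/+ library, and replicate 3 was the lowest of the 12. Fhl2 fell by 2.21 on the log2 scale (SE 0.41, 4.62-fold lower, edgeR adjusted p 0.00267). Without replicate 2 of Des-/- non-swim it fell by 2.85.

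Fhl1 (ENSMUSG00000023092, chrX:56731787-56793346, plus strand), a relative that also binds titin and is mutated in reducing body myopathy, moved far less. It was at 171, 267 and 157 CPM in Des+/+ non-swim and at 138, 145 and 130.2 CPM in Des-/- non-swim libraries. The groups did not overlap, but their nearest libraries lay at 157 and 145 CPM. The fall of 0.52 on the log2 scale (SE 0.18, 1.44-fold lower) had an edgeR adjusted p of 0.0459, and it lost the call in 10 of the 12 fits without 1 library. It was kept without replicate 1 or without replicate 3 of Des+/+ non-swim; without replicate 2 of that group the log2 change was -0.25 (edgeR adjusted p 0.181).

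Csrp3 (ENSMUSG00000030470, chr7:48830398-48848033, minus strand), muscle LIM protein, was lower as well. Levels were 761, 1186 and 1022 CPM in Des+/+ non-swim and 294, 369 and 146 CPM in Des-/- non-swim libraries, without overlap. In both groups replicate 2 was the highest library. Csrp3 fell by 1.88 on the log2 scale (SE 0.34, 3.67-fold lower, edgeR adjusted p 0.00243).

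Of the Xin-repeat genes, Xirp1 (ENSMUSG00000079243, chr9:120013755-120023598, minus strand) showed the largest fold difference of the 8 tested genes. It was at 188, 307 and 199 CPM in Des+/+ non-swim and at 27.2, 86.2 and 23.7 CPM in Des-/- non-swim libraries. Replicates 1 and 3 of the Des-/- group were close to each other and replicate 2 was over 3-fold higher, yet still below all Des+/+ values. Xirp1 fell by 2.34 on the log2 scale (SE 0.55, 5.07-fold lower, edgeR adjusted p 0.00876), and between 2.03 and 3.19 when single libraries were left out, the larger value without replicate 2 of Des-/- non-swim.

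Xirp2 (ENSMUSG00000027022, chr2:67446002-67526614, plus strand), the larger paralogue, was at 569, 706 and 403 CPM in Des+/+ non-swim and at 153, 325 and 192 CPM in Des-/- non-swim libraries. The groups did not overlap, with the nearest libraries at 403 and 325 CPM. Xirp2 fell by 1.32 on the log2 scale (SE 0.36, 2.50-fold lower, edgeR adjusted p 0.0169). The call was lost without replicate 2 of Des+/+ non-swim, without replicate 1 of Des-/- non-swim and without replicate 3 of Des-/- non-swim, with adjusted p up to 0.0665.

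Tcap (ENSMUSG00000007877, chr11:98383811-98384953, plus strand), the titin cap of the Z-disc, was at 1068, 2027 and 1764 CPM in Des+/+ non-swim and at 523, 567 and 133 CPM in Des-/- non-swim libraries. The groups did not overlap, and replicate 3 of Des-/- non-swim stood well below the other two. Tcap fell by 1.99 on the log2 scale (SE 0.57, 3.97-fold lower, edgeR adjusted p 0.0212). Without replicate 2 or without replicate 3 of Des+/+ non-swim the adjusted p was between 0.0546 and 0.0684.

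**Figure D2:**
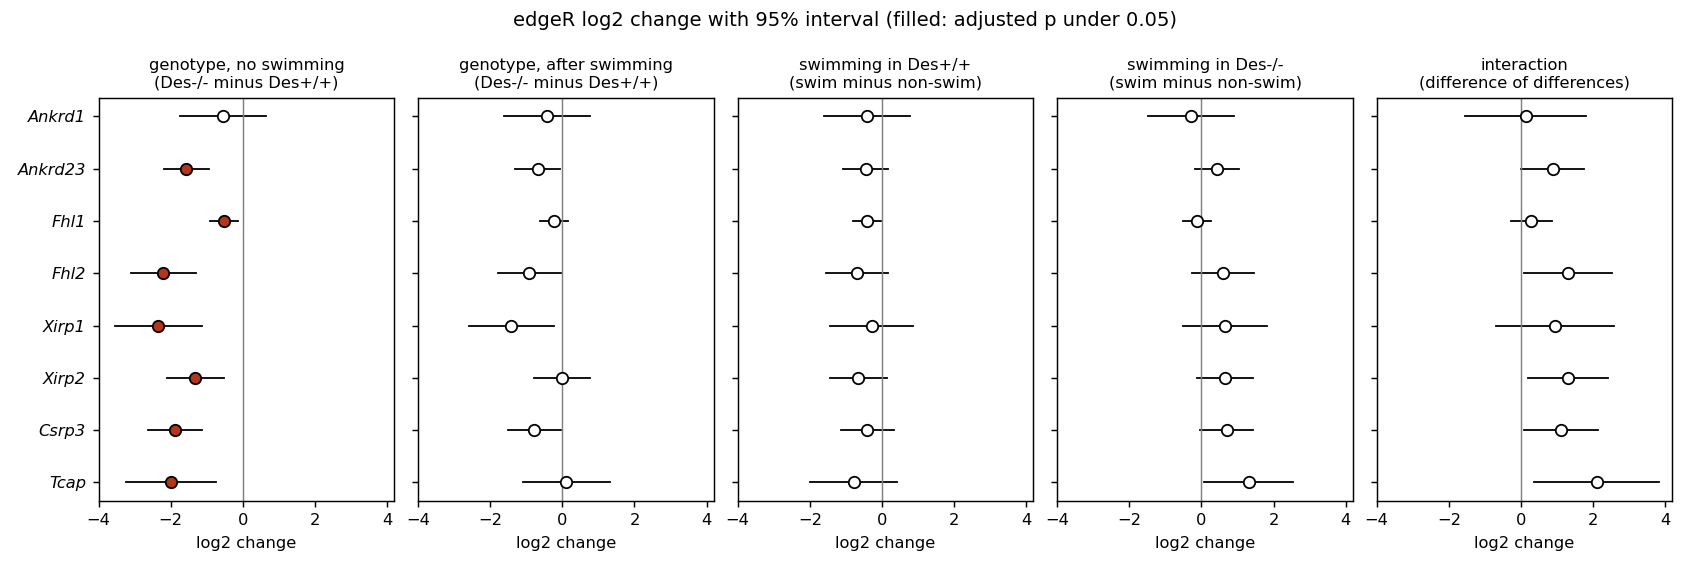
log2 change of the 8 tested genes in the 5 comparisons (points, with 95% intervals from the edgeR model of 12 libraries; filled points have an adjusted p under 0.05). Filled points occur in the genotype comparison without swimming, where 7 genes lie between -2.34 and -0.52; in the other 4 panels no gene passes, and in the interaction panel all 8 points lie to the right of 0.

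These falls went with lower cardiomyocyte markers. All 8 cardiomyocyte markers were called lower in the same comparison, with a median log2 change of -2.04, and all 8 fibroblast markers and 7 of 8 macrophage markers were called higher. Macrophage markers summed to 202 to 307 CPM in Des+/+ non-swim and 382 to 4047 CPM in Des-/- non-swim libraries, and 9 of 12 immediate early and heat shock genes known to respond to cell isolation were called higher too. None of the markers in the cardiomyocyte, fibroblast and macrophage lists was at 0 in any group. The part of these differences in the results above was not tested by a model, but the reads of each gene can be set against those of the cardiomyocyte markers in the same library.

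Per 1000 reads of the 8 cardiomyocyte markers, Fhl2 held 22.7 to 24.2 reads in Des+/+ non-swim, 21.3 to 28.4 in Des+/+ swim, 21.5 to 29.3 in Des-/- non-swim and 19.8 to 29.5 in Des-/- swim libraries. The groups overlapped throughout on this scale, and their ratio was more even than that of any other member. Xirp1, at 3.91 to 4.22 reads in Des+/+ non-swim and 2.47 to 5.19 in Des-/- non-swim libraries, also overlapped, as did Csrp3 and Tcap. Ankrd1, by contrast, had 15.6, 30.1 and 22.3 reads in Des+/+ non-swim and 73.2, 55.2 and 182 in Des-/- non-swim libraries. Fhl1 had 3.83, 3.67 and 3.08 against 12.5, 7.25 and 28.5 reads. For both genes, and for Ankrd23 and Xirp2, every Des-/- non-swim library exceeded every Des+/+ non-swim library on this scale. The share of all tested genes that did so was not counted, so this separation is not a trait shown for these genes. With libraries scaled to these markers, Ankrd1 (log2 change 2.19, edgeR adjusted p 0.0050), Fhl1 (2.19, 0.0011) and Xirp2 (1.25, 0.0491) were called higher and none of the 8 lower. That scaling also called 92.4% of all tested genes higher, with a median log2 change of 2.71 over all genes, above the values of all 8 members.

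**Figure D3:**
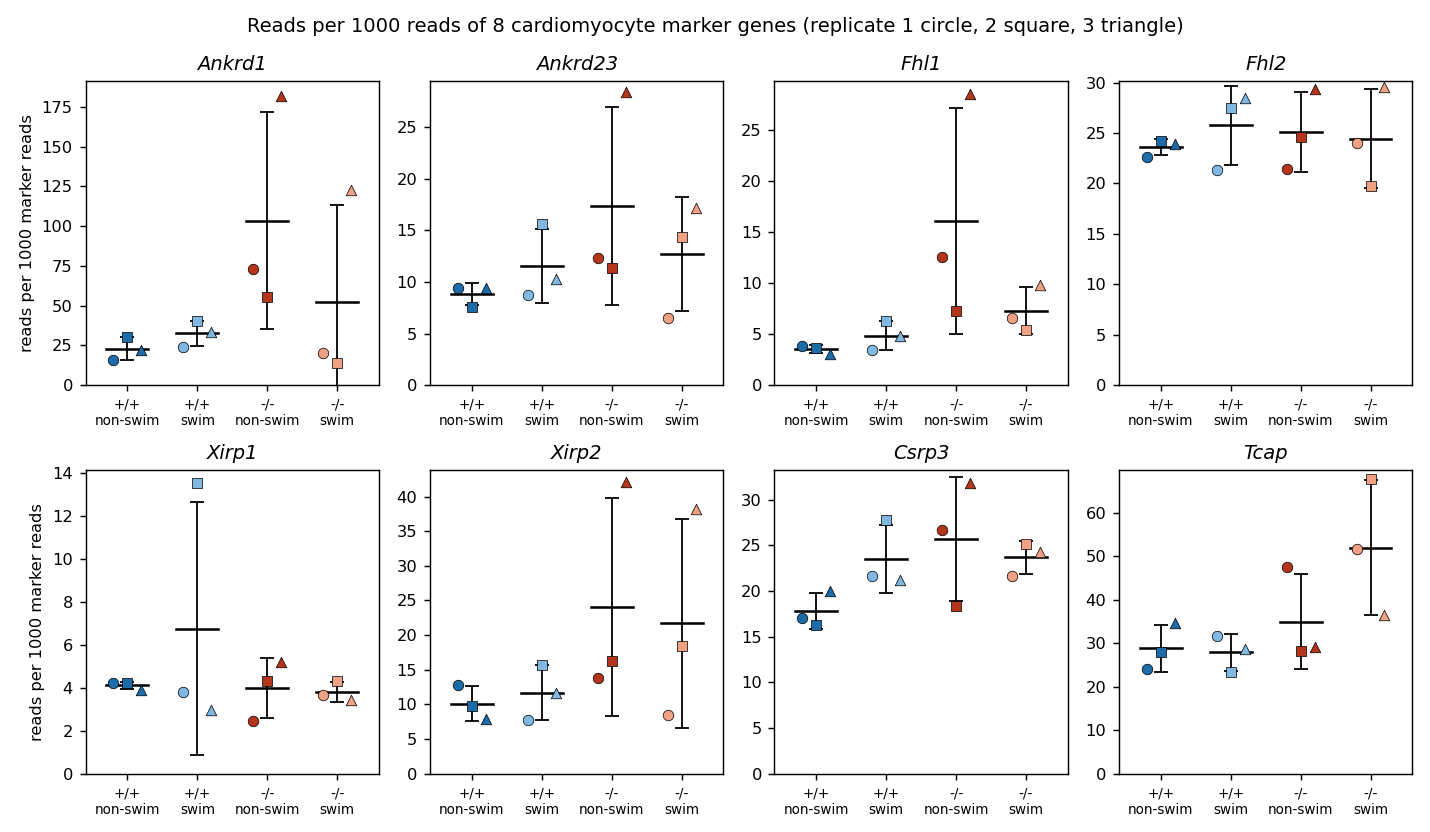
Reads of each of the 8 tested genes per 1000 reads of 8 cardiomyocyte marker genes in the same library (linear axes from 0; circle, square and triangle for replicates 1, 2 and 3; lines are means and bars ± SD of 3 libraries). Fhl2 stays between 19.8 and 29.5 in all 12 libraries, whereas Ankrd1 reaches 182 and 123 in replicate 3 of the 2 Des-/- groups.

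**Figure D4:**
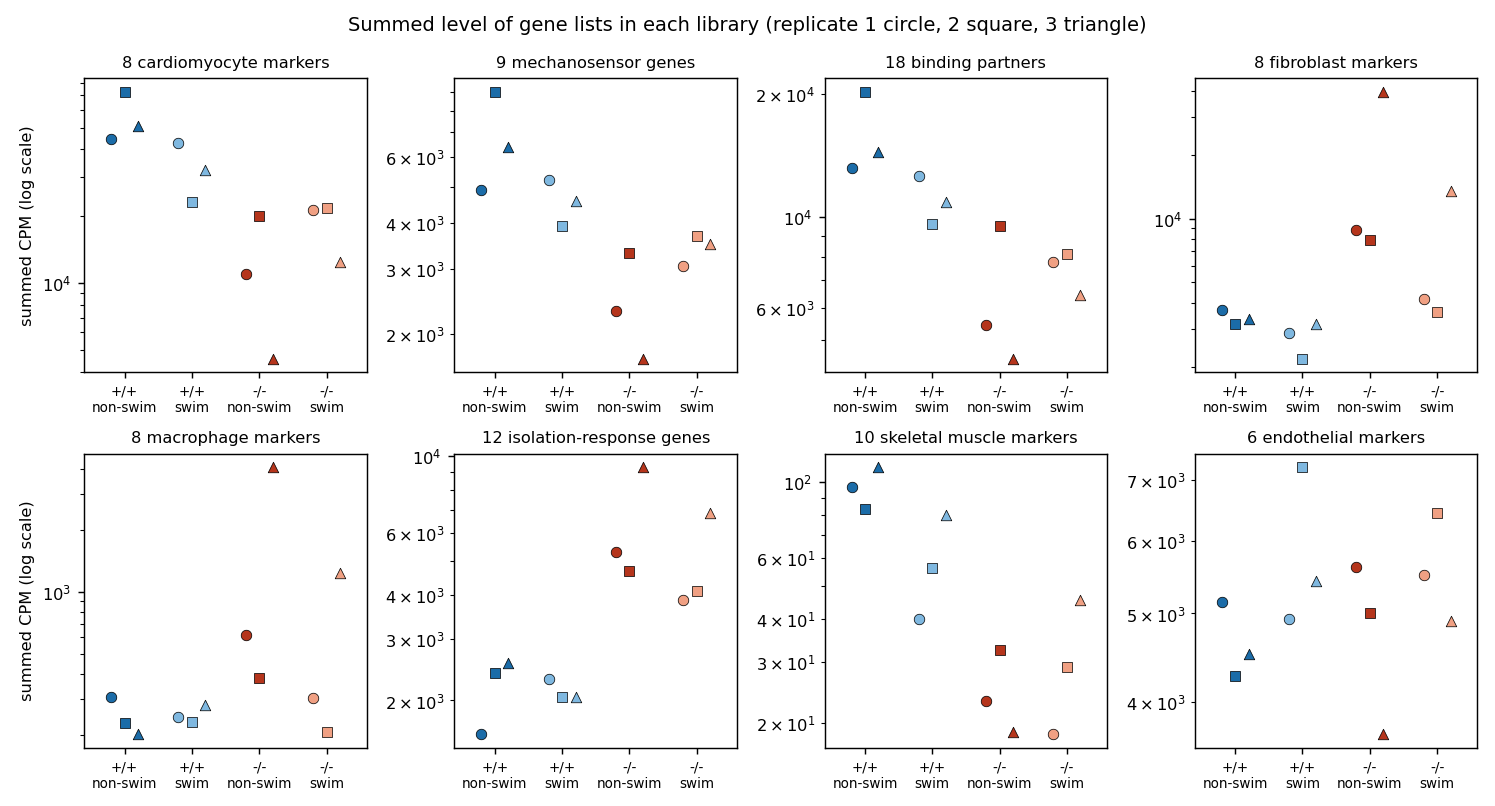
Summed CPM (log axes, a separate scale per panel) of gene lists in each of the 12 libraries, with circle, square and triangle for replicates 1, 2 and 3. The 9 mechanosensor genes and the cardiomyocyte markers are lowest in replicate 3 of Des-/- non-swim, the library in which the fibroblast and macrophage markers are highest, at 39661 and 4047 CPM.

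The second comparison set the genotypes against each other after swimming. No member passed the test in edgeR, where 10.6% of all tested genes did. The median log2 change of the 8 genes was -0.55, against 0.02 over all tested genes, and 4 genes had an unadjusted p under 0.05 (Fhl2, Csrp3, Ankrd23 and Xirp1), as did 30.5% of all genes. DESeq2 called 1 gene, Xirp1, at an adjusted p of 0.0430. In 5 genes (the same 4 and Fhl1) every Des-/- swim library lay below every Des+/+ swim library, where 18.6% of all tested genes were lower without overlap. The cardiomyocyte markers were negative in 8 of 8 genes here too, with a median log2 change of -0.57 and 1 called lower. Of the 12 immediate early and heat shock genes, 7 were called higher and 0 lower.

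The LIM-domain genes were again lower in Des-/- libraries in value. Fhl2 was at 908, 636 and 919.6 CPM in Des+/+ swim and at 512, 430.2 and 367 CPM in Des-/- swim libraries. Its log2 change was -0.91 (SE 0.40, edgeR adjusted p 0.146), and it was called when the 6 swim libraries were fitted alone (edgeR adjusted p 0.0415). Csrp3 was at 921, 641 and 684 CPM against 462, 546 and 302 CPM, a log2 change of -0.78 (SE 0.33, edgeR adjusted p 0.140). For both genes the groups were separate, but the gap between the nearest libraries was smaller than the spread within the Des+/+ swim group. Fhl1 was at 146, 145 and 156 CPM against 140.1, 117 and 122 CPM, with a log2 change of -0.24 (SE 0.18, edgeR adjusted p 0.403).

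Ankrd23 was at 374, 359.8 and 334 CPM in Des+/+ swim and at 139, 313 and 213 CPM in Des-/- swim libraries, a log2 change of -0.68 (SE 0.28, edgeR adjusted p 0.131). Its Des-/- swim libraries spread more than 2-fold and the highest came close to the Des+/+ range. Xirp1 was at 162, 312 and 95.8 CPM against 78.1, 94.0 and 42.6 CPM, so that the groups were barely separate, at 95.8 and 94.0 CPM, with a log2 change of -1.41 (SE 0.54, edgeR adjusted p 0.105). With the replicate number as a block it was called (log2 change -1.30, edgeR adjusted p 0.0237). Same-numbered Des+/+ swim and Des-/- swim libraries deviated together only weakly (correlations 0.0189 to 0.125), and their numbers were not taken as paired. The call of Xirp1 under the block thus rests on a pairing that was not shown.

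The remaining 3 genes overlapped between genotypes after swimming. Xirp2 was at 330.2, 361 and 378 CPM in Des+/+ swim and at 182, 400.0 and 474 CPM in Des-/- swim libraries, a log2 change of -0.02 (95% interval -0.80 to 0.76). Tcap was at 1349, 540.3 and 924 CPM against 1102, 1471 and 455 CPM, a log2 change of 0.11 (95% interval -1.10 to 1.31). Both intervals extend well to either side of 0, so equal levels were not shown. Ankrd1 had even levels in Des+/+ swim libraries, at 1024, 924 and 1078 CPM, and uneven ones in Des-/- swim libraries, at 432, 297 and 1525 CPM. Replicates 1 and 2 were the lowest of the 12 libraries and replicate 3 the second highest, so the groups overlapped. The log2 change was -0.43 (SE 0.54, edgeR adjusted p 0.624). Leaving out replicate 3 of both Des-/- groups, a choice made after seeing the data, gave -1.46 (edgeR adjusted p 0.0383). Replicate 3 of Des-/- swim also had the highest fibroblast and macrophage sums of its group, 13416 and 1238 CPM, and their part in the Ankrd1 value was not tested.

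The next pair of comparisons asked how swimming changed the genes within each genotype. They share their libraries with the genotype comparisons. In Des+/+ mice edgeR and DESeq2 each called 0 of the 8 genes, and edgeR called 0.0912% of all tested genes. Fhl1 alone had an unadjusted p under 0.05 (0.0435; 20.5% of all genes did), with a log2 change of -0.41 (SE 0.18, edgeR adjusted p 0.232). All 8 log2 changes were negative, from -0.79 (Tcap) to -0.28 (Xirp1), with a median of -0.43 against -0.08 over all genes. In Fhl2, Fhl1, Xirp2 and Ankrd23 every swim library lay below every non-swim library, where 18.7% of all tested genes were lower without overlap. Fhl2, for example, was at 1009.9 CPM or more without swimming and at 919.6 CPM or less after it, with a log2 change of -0.70 (SE 0.39, edgeR adjusted p 0.332). The cardiomyocyte markers had negative values too in 8 of 8 genes, with a median log2 change of -0.71 and 0 called.

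In Des-/- mice the values mostly took the opposite sign, again with 0 of 8 genes called by edgeR or DESeq2 and 0.0228% of all genes called by edgeR. Tcap had the largest value, with a log2 change of 1.31 (SE 0.56, unadjusted p 0.0386, edgeR adjusted p 0.278); its levels were 523, 567 and 133 CPM without and 1102, 1471 and 455 CPM after swimming, and only replicate 3 of the swim group overlapped the non-swim range. An unadjusted p under 0.05 was reached by 16.7% of all genes. Csrp3 (0.70), Xirp2 (0.66), Xirp1 (0.65), Fhl2 (0.60) and Ankrd23 (0.43) had positive log2 changes, and Ankrd1 (-0.28) and Fhl1 (-0.12) negative ones. No member had groups without overlap here, whereas 19.4% of all tested genes did. The edgeR and DESeq2 tests above did not pair libraries. Within the 3 same-numbered pairs of Des-/- libraries, Tcap, Csrp3, Xirp1, Xirp2 and Ankrd23 had a higher value after swimming in 3 of 3 pairs. These were 5 of the 8 genes, against 21.9% of all tested genes. Fhl2 was higher in 2 pairs and Ankrd1 and Fhl1 in 1 each. Correlations between libraries set only replicate 3 apart by its number, so how replicates 1 and 2 pair was not shown. The summed cardiomyocyte markers were higher in 3 of 3 pairs as well, and with the replicate number as a block 0 of the 8 members were called. The 8 cardiomyocyte markers were positive in 8 of 8 genes, with a median log2 change of 0.73 against 0.62 for the 8 members, and 0 were called.

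The difference between the 2 swimming responses was tested as an interaction. It was called for 0 of 8 members by edgeR and by DESeq2, and for 0% of all genes by edgeR. All 8 interaction values were positive, with a median log2 of 1.01 against 0.03 over all genes, and 5 had an unadjusted p under 0.05, which 16.3% of all genes had. These were Tcap (2.10, SE 0.79, edgeR adjusted p 0.240), Xirp2 (1.31, SE 0.50, adjusted p 0.247), Fhl2 (1.30, SE 0.56, adjusted p 0.283), Csrp3 (1.10, SE 0.47, adjusted p 0.280) and Ankrd23 (0.88, SE 0.40, adjusted p 0.305). A swimming response that depends on desmin was therefore not shown for any of them at this number of libraries. The interaction values of the 8 cardiomyocyte markers were also positive in 8 of 8 genes, with a median of 1.41.

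Genes that work with these proteins were read from written lists. Of 5 relatives (Fhl3, Fhl4, Fhl5, Csrp1 and Csrp2), 3 passed the filter, and Csrp2, a LIM protein of smooth muscle and mesenchymal cells, rose without swimming by 1.04 on the log2 scale (SE 0.32, edgeR adjusted p 0.0291) while Csrp3 fell. None of the 3 was called in the other comparisons, in which the smallest unadjusted p belonged to Csrp1 for swimming in Des+/+ (log2 change 0.52, edgeR adjusted p 0.121). The next smallest p there was that of Csrp2 (0.53, adjusted p 0.363). After swimming Csrp2 was at 0.54 (adjusted p 0.276) and Csrp1 at -0.22 (0.366) between genotypes. In Des-/- mice swimming gave Fhl3 a log2 change of -0.42 (adjusted p 0.416) and Csrp1 one of -0.05 (0.886), and the interaction was -0.57 for Csrp1 (0.246) and -0.50 for Csrp2 (0.575).

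Of 18 binding partners and clients, among them titin, actinin, myopalladin and the calsarcins, 16 were tested. Without swimming 12 were lower and 1 was higher in the Des-/- libraries, against 18.0% of all tested genes called lower and 32.0% called. Their median log2 change was -1.71, beside -1.72 for the 8 members and -2.04 for the cardiomyocyte markers. Trim63 (MuRF1, a ubiquitin ligase of the sarcomere) fell by 2.89 on the log2 scale (SE 0.40, edgeR adjusted p 0.000922) and Capn3, a protease held by titin, by 2.78 (SE 0.57, edgeR adjusted p 0.00439). Vasp, an actin regulator that binds Xin proteins, rose by 0.54 (SE 0.19, edgeR adjusted p 0.0496). After swimming 1 partner was called: Trim63 fell by 1.93 (SE 0.39, edgeR adjusted p 0.0162). Swimming called none in either genotype; the smallest p-values were those of Vasp (log2 change 0.72, adjusted p 0.102) and Casq2 (-0.89, 0.196) in Des+/+ and of Ybx1 (0.36, 0.262) and Itgb1 (-0.37, 0.338) in Des-/- mice. The interaction was also uncalled, with Vasp at -0.90 (0.199) and Capn3 at 2.21 (0.225).

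All 13 genes of SRF and YAP signalling, the transcriptional routes most tied to load, were tested. Without swimming 2 rose and 3 fell, 5 of 13, a share near the 32.0% called over all tested genes. Ccn1, a secreted target of YAP and SRF that is strong in fibroblasts, rose by 1.25 on the log2 scale (SE 0.43, edgeR adjusted p 0.0444) and the SRF cofactor Mrtfa by 0.90 (SE 0.19, adjusted p 0.00459). Myocd, the cardiac and smooth muscle cofactor of SRF, fell by 2.05 (SE 0.44, edgeR adjusted p 0.00549) and Tead1, which reads M-CAT elements, by 0.89 (SE 0.26, adjusted p 0.0232). The third fall was that of Srf itself, by 0.70 on the log2 scale. After swimming 3 of 13 genes fell, where 10.6% of all tested genes were called and 733 of 13158 were called lower. The largest falls were those of Vcl (by 0.74, SE 0.21, edgeR adjusted p 0.0441) and Lats2 (by 0.71, SE 0.17, adjusted p 0.0245). The third was again that of Srf, by 0.65 (SE 0.14, edgeR adjusted p 0.0198). Swimming called 0 of 13 in either genotype, with Wwtr1 (log2 change 0.41, adjusted p 0.168) and Lats2 (0.43, 0.179) first in Des+/+ and Vgll4 (-0.45, 0.268) and Lats2 (-0.29, 0.380) first in Des-/- mice. In the interaction Lats2 was at -0.73 and Vgll4 at -0.82 (adjusted p 0.206 for both).

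The 5 load-responsive genes of the hypertrophic programme (Nppa, Nppb, Myh7, Acta1 and Rcan1) gave 0 calls by edgeR in all 5 comparisons. Of all tested genes, 32.0% were called between genotypes without and 10.6% after swimming. For swimming in Des+/+, swimming in Des-/- and the interaction the shares were 0.0912%, 0.0228% and 0%, so calls there were rare in any gene. Acta1, skeletal actin, came nearest for swimming in Des+/+ mice, with a log2 change of -3.43 (SE 0.81, edgeR adjusted p 0.0831), and Nppa was second there at -1.15 (0.340). Between genotypes the smallest p-values were those of Acta1 (-1.68, adjusted p 0.109) and Rcan1 (-0.40, 0.255) without and of Nppa (1.72, 0.111) and Rcan1 (-0.53, 0.181) after swimming. In Des-/- mice swimming left Nppa at -0.42 (0.774) and Rcan1 at -0.16 (0.782), and the interaction was 3.10 for Acta1 (0.218) and 1.97 for Myh7 (0.592).

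The patterns of the 8 tested genes over the 12 libraries were compared as the root mean square difference of their centred log2 CPM, given as a description in which the points share the same libraries. Fhl2 and Csrp3 were the closest pair among the 8, at 0.29 log2 units, followed by Ankrd23 and Xirp2 at 0.36 and by Ankrd23 and Csrp3 at 0.38. Over all tested genes, however, Csrp3 ranked only 124 in nearness to Fhl2, and Fhl2 ranked 123 in nearness to Csrp3. The paralogues Xirp1 and Xirp2 lay 0.88 apart, Fhl1 and Fhl2 0.82 and Ankrd1 and Ankrd23 0.81. On this measure each of these genes was nearer to a gene of another family than to its own paralogue. The measure also counts differences in the size of each gene's own root mean square spread. That spread was 0.29 for Fhl1 and 1.00 for Fhl2, 1.19 for Xirp1 and 0.64 for Xirp2, and 0.73 for Ankrd1 and 0.70 for Ankrd23. Patterns of different shape were thus not shown for the Fhl and Xirp pairs. Ankrd1 was far from the others, at 0.60 (Fhl1) to 1.29 (Tcap).

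**Figure D5:**
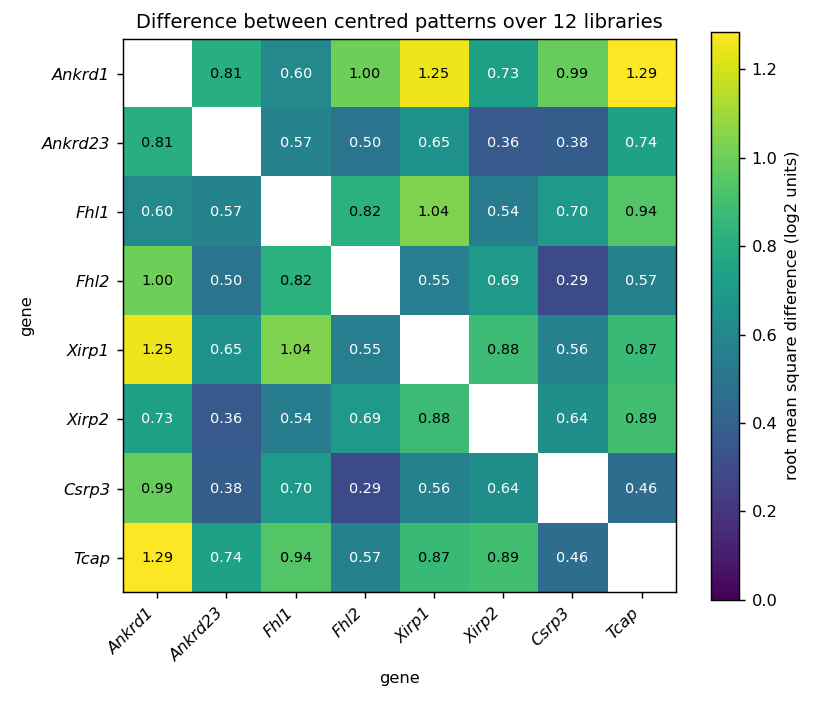
Root mean square difference (log2 units, darker is closer) between the centred log2 CPM patterns of each pair of the 8 tested genes over 12 libraries. Fhl2 and Csrp3 form the darkest cell at 0.29, and the row of Ankrd1 is the lightest, from 0.60 to 1.29.

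Over all 13158 tested genes, the nearest patterns to Fhl2 were those of Me3 (0.11), mitochondrial malic enzyme, and Sgca (0.13), alpha-sarcoglycan. Those nearest to Csrp3 were Slc25a4 (0.14), the ADP/ATP carrier of heart muscle, and Vegfb (0.15). Tcap was nearest to Myl2 (0.32), the ventricular light chain, and Mlxipl (0.34). Xirp1 was nearest to Abra (0.35), an actin-binding activator of SRF signalling, and Lmod2 (0.43), the leiomodin that lengthens thin filaments, and Xirp2 to Dpf3 (0.28) and Mpp6 (0.32). For Ankrd23 they were Gm3646 (0.24) and Mpp6 (0.25), for Fhl1 AU040320 (0.11) and Ikbkg (0.12), and for Ankrd1 C8g (0.33) and Art4 (0.34). Fhl1, which varied little, was matched by genes that are not specific to muscle.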

How the data were processed

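RNA of adult cardiomyocytes was sequenced as single-end reads. The deposited values are raw counts of reads per gene. The authors aligned reads to GRCm38 with HISAT2 2.2.1 and counted them with HTSeq-count in reverse-strand mode, per the labels and the study's methods, with no normalisation. The labels name an unstranded kit and the methods a directional one. Of uniquely aligned reads, 34.0% to 64.5% per library fell in no gene and were left out of library totals.

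Genes were filtered with filterByExpr (13158 of 21493 kept) and scaled by TMM in edgeR 4.0.16 (R 4.3.3). A single model of 4 group means over 12 libraries was tested by quasi-likelihood for 5 contrasts, with Benjamini-Hochberg adjustment over all tested genes and calls at 0.05. Groups came from the sample labels. Intervals and floors cover 95% and 3 counts, the latter for counting error only. Positions and exon lengths came from GENCODE M21, and promoter sequences from RefSeq. The genotype test without swimming was also run on counts simulated with the fitted spread. These held no shift in cell mixture, so the check does not cover such a shift.

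The alternatives were DESeq2 1.42.0, other scalings, no filter, fits of the compared libraries alone, a replicate block and leaving out single libraries. Same-numbered Des-/- non-swim and Des-/- swim libraries deviated together (correlations 0.316 to 0.602), so their values were also compared within pairs. The main model held no pairing, so its standard errors and p-values for swimming in Des-/- mice are unpaired. Replicates 1 and 2 of these groups correlated nearly as well across numbers (0.299 and 0.292). Only replicate 3 was thus set apart, and how replicates 1 and 2 pair was not shown. Numbers of other groups were not taken as paired. The replicate block used the numbers across genotypes all the same, so genotype results under it rest on a pairing that was not shown. The members and lists were chosen with earlier results of these data known. Named genes were all members, Des, the 2 called genes of each list with the largest change per direction and comparison (or else the 2 smallest p-values) and the 2 most similar genes per member. Srf was named after its values were seen.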

Additional observations from a re-analysis of the deposited data

Results flagged for a closer look

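Reads that aligned uniquely but fell in no annotated gene lie outside the gene counts. In Des+/+ mice their mean share was 36.4% ± 2.71 without and 47.8% ± 2.31 with swimming, and in Des-/- mice 45.2% ± 9.67 without and 60.0% ± 3.95 with swimming (each ± SD of 3 libraries). In both swim groups every library exceeded every Des+/+ non-swim library. The counts of the 9 genes are relative to reads within genes, and the part of this share in their values was not tested.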

How the results depend on the processing

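Without swimming, the 7 called members stayed 6 or 7 with DESeq2, other library scalings, no filter, the compared libraries alone and the replicate block; Fhl1 was the gene that was lost. Leaving out single libraries gave 4 to 7, the lowest without replicate 2 of Des+/+ non-swim, and leaving out replicate 3 of both Des-/- groups, chosen after the data were seen, gave 6. Fhl2, Csrp3, Ankrd23 and Xirp1 were kept in all 12 such fits. Scaling to the cardiomyocyte markers gave 3, all higher. After swimming, 0 members became 1 with DESeq2, 1 with the compared libraries alone, 1 with the replicate block and 1 without replicate 3 of both Des-/- groups, and stayed 0 without any single library. The cause of these changes was not tested. In the swimming and interaction comparisons 0 members were called under each alternative, although over all genes DESeq2 called 812, 339 and 328 where edgeR called 12, 3 and 0, and after swimming 2332 against 1392. The replicate block moved no other member count.

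Cardiomyocyte-marker scaling, which moves the median of all genes by construction, turned the log2 changes without swimming to 2.19 (Ankrd1), 0.97 (Ankrd23), 2.19 (Fhl1), 0.090 (Fhl2), 1.25 (Xirp2), 0.53 (Csrp3) and 0.28 (Tcap), and those after swimming to 0.68 (Ankrd1), 0.13 (Ankrd23), 0.58 (Fhl1), 0.89 (Xirp2) and 0.011 (Csrp3). For swimming in Des+/+ it gave 0.52 (Ankrd1), 0.39 (Ankrd23), 0.46 (Fhl1), 0.13 (Fhl2), 0.72 (Xirp1), 0.21 (Xirp2) and 0.40 (Csrp3), and in Des-/- mice -0.45 (Ankrd23), -0.040 (Fhl2), -0.066 (Xirp1), -0.15 (Xirp2) and -0.12 (Csrp3). The interaction became -1.50 (Ankrd1), -0.84 (Ankrd23), -1.60 (Fhl1), -0.17 (Fhl2), -0.78 (Xirp1), -0.36 (Xirp2) and -0.52 (Csrp3).

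Other reversals concerned uncalled values near 0. Xirp2 after swimming was 0.074 with upper-quartile scaling and ranged from -0.30 to 0.29 without single libraries. Tcap after swimming was -0.054 with the replicate block and -0.27 to 0.46 without single libraries. Ankrd1 ranged from -0.72 to 0.14 for swimming in Des+/+ and from -1.33 to 0.10 in Des-/- mice, Xirp1 from -0.85 to 0.035 in Des+/+ mice. The Ankrd1 interaction was -0.088 with the replicate block, -1.05 without replicate 3 of both Des-/- groups and -0.92 to 0.51 without single libraries. With 3 libraries a group, changes under 2-fold in variable genes such as Ankrd1, Tcap and Xirp1 could not be resolved. Some larger ones were not called either. Xirp1 was 2.66-fold lower in Des-/- after swimming (edgeR adjusted p 0.105), and Tcap 2.48-fold higher with swimming in Des-/- mice (edgeR adjusted p 0.278).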
